A study of Mus musculus with 12 samples.

Results

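The baseline gene expression of the juvenile mouse hippocampus was read from the 6 control arrays of a series of 12. The 6 arrays were chosen by their titles, which name them as controls 1 to 6; every gene on them was described, and no measured value entered the choice. Each array held total RNA from the hippocampus of a male C57BL/6J mouse at 3 weeks of age, labelled with Cy3 and hybridised to an Illumina mouse bead array. The other 6 arrays, from pups whose mothers had access to ethanol early in pregnancy, are not compared here. The treatment text, which control samples carry too, gives drinking of 10% ethanol by the mother between 0.5 and 8.5 days of pregnancy and does not say what control dams drank. Nor do the labels say whether the control pups came from separate litters, or how the hippocampus was cut from the brain. Controls 1 to 3 lay on beadchip 1 and controls 4 to 6 on beadchip 2, beside ethanol arrays.

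The hippocampus is a fold of the medial cortex that is needed for forming memories of places and events. Its glutamatergic neurons form a loop: granule cells of the dentate gyrus project to the CA3 pyramidal cells, and these to CA1, while GABAergic interneurons set the timing of firing. At the age of weaning the granule cell layer is still receiving new neurons, oligodendrocytes are wrapping axons in myelin, and astrocytes and microglia are taking their adult form. The choroid plexus, an epithelium that secretes cerebrospinal fluid, lies in the ventricle against the hippocampal fimbria and can be taken along in dissection, as can meninges, thalamus and cortex.

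The array carries 45281 probes, of which 34885 name 1 gene in the annotation used here, and these cover 19053 genes. A probe was counted as detected on an array when its detection p-value, the chance that a control bead without a target is as bright, was under 0.05. Between 20910 and 21672 probes were detected per control array, or 46.2% to 47.9%. The medians of the scanner signals lay between 132.6 and 147.3, and the normalized log2 signals of any pair of control arrays correlated across probes at 0.99 to 0.994. Signals below are normalized log2 values of a gene's brightest probe, given for controls 1 to 6 in that order or as the mean ± SD of the 6 arrays. Since probes bind their targets unequally well, the order of genes is an order of probe signals and not of transcript numbers.

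Before any list is read, 2 arrays stand apart. Ttr, the transthyretin gene that choroid plexus epithelium transcribes more than any other brain cell, had a log2 signal of 11.00, 15.73, 15.56, 8.33, 15.74 and 15.70. Controls 1 and 4 were lower than every other control array, by more than 4 log2 units. In whole tissue, fewer cells of a type and less RNA per cell cannot be told apart. The 2 arrays lay on different beadchips and had ordinary numbers of detected probes, 20936 for control 1 and 21552 for control 4. The median SD of all genes and the lists of most and least variable genes are therefore given with and without controls 1 and 4. So is the count of genes with an SD above 0.5. The SDs of single genes, gene lists, signal groups and reference genes are given over all control arrays only. How far controls 1 and 4 shape those SDs was not tested.

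A gene was called detected on an array when any of its probes was. In all, 10369 of the 19053 genes (54.42%) were detected on all 6 control arrays, 2342 (12.29%) on 1 to 5 arrays, and 6342 (33.29%) on none. Leaving out controls 1 and 4, 10580 genes were detected on the other 4 arrays and 6600 on none. With a detection p-value under 0.01 in place of 0.05, 9493 genes were detected on all 6. Among genes detected on all 6, the median signal was 9.12, with the 20th percentile at 7.19 and the 80th at 11.09. The lowest such gene had 5.55 and the 99th percentile stood at 14.24. The undetected genes formed a narrow peak at the left of the plot of gene signals, below almost every detected gene.

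**Figure D1:**
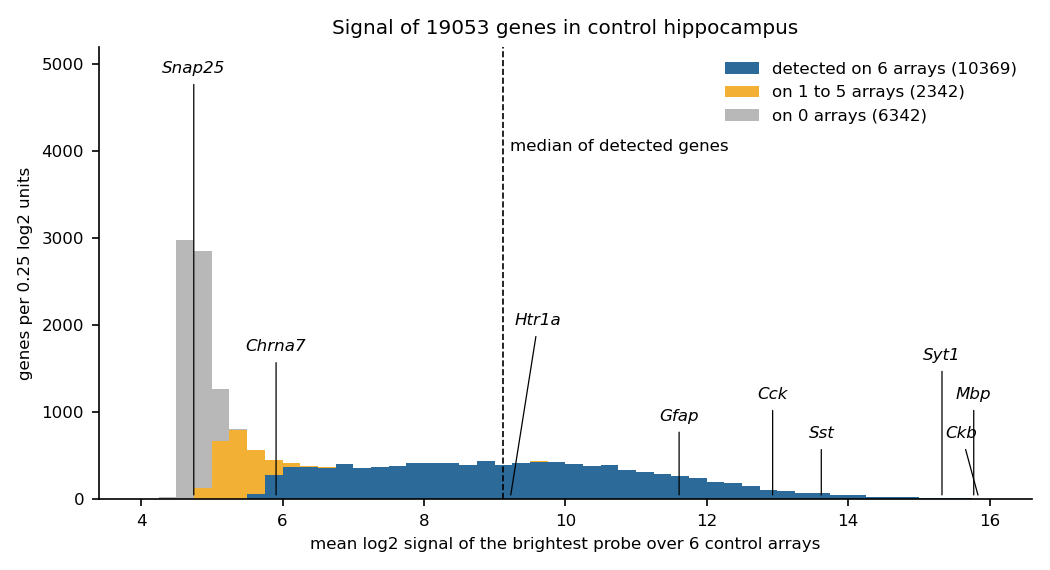
Histogram of the mean log2 signal of each gene's brightest probe over the 6 control arrays, in bins of 0.25 log2 units, stacked by the number of arrays on which the gene was detected. The 6342 undetected genes pile up near the low end, and the 10369 genes detected on all 6 spread widely around their median of 9.12, with Mbp and Ckb at the bright end.

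Gene families that brain tissue should lack gave a check on the detection calls. Of 1281 chemoreceptor genes, which code for receptors of the nose and tongue, 14 (1.09%) were detected on all 6 arrays. Their 1540 probes were called detected at a rate of 2.4% to 4.55% per array. Olfactory receptors contributed 13 of 1078 genes, vomeronasal receptors 1 of 168 and taste receptors 0 of 35. The beta-defensins, antimicrobial peptides of epithelia, had 0 of 42 genes detected on all 6 and 37 on none. The beta-defensin Defb11 was an exception, detected on 4 arrays. It had 10.36, 10.40, 10.04 and 10.34 on controls 2, 3, 5 and 6, above the median of detected genes. The keratins had 6 of 91 genes detected on all 6.

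Families of basic cell machinery stood at the other end. Among genes for heterogeneous nuclear ribonucleoproteins, which bind nascent transcripts, 19 of 20 were detected on all 6 arrays (95%). Mitochondrial ribosomal proteins had 72 of 76 (94.7%), proteasome subunits 34 of 40 (85.0%) and Rab GTPases, which direct vesicle traffic, 59 of 70 (84.3%). Potassium channel genes (54 of 88, 61.4%), zinc finger proteins (208 of 331, 62.8%) and solute carriers (190 of 356, 53.4%) lay near the share for all genes. Protocadherins, adhesion molecules whose clustered members label single neurons, had 29 of 65 (44.6%). Interleukin genes (8 of 32, 25%) and cytochrome P450 genes (17 of 87, 19.5%) were mostly not detected. By chromosome the share of genes detected on all 6 ran from 45.7% on chromosome X to 62.4% on chromosome 5, leaving out the Y chromosome and mitochondrial DNA. Of 8 mitochondrial genes with a probe 7 were detected on all 6. The Y chromosome, which carries few genes outside the testis programme, had 3 of 19.

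One limit of these calls can be measured on the array itself. Of 9171 genes with several probes, 2960 (32.3%) had a probe detected on all 6 arrays and another detected on none. An undetected gene with a single probe is therefore undetected by that probe, and no more.

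Ckb, the brain form of creatine kinase that buffers ATP, was the brightest gene, with a log2 signal of 15.90, 15.79, 15.84, 15.84, 15.86 and 15.86. Fth1, the heavy chain of the iron store ferritin, followed at 15.84 ± 0.051. ND4 and CYTB, respiratory chain subunits that are encoded in mitochondrial DNA, stood at 15.83 ± 0.063 and 15.75 ± 0.061. The scanner signal of Ckb had a median of 59201.2 over the 6 arrays. The highest deposited signal of any probe was 66558.7, on control 4, above the 65535 that a 16-bit scanner can record. The deposited values are thus not capped at 65535, and whether the brightest probes were saturated was not tested. The 25 brightest genes spanned only 15.18 to 15.85 and together made up 4.28% to 4.48% of the background-corrected signal of an array. The 1000 brightest probes made up 49.2%.

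Mbp, which codes for the protein that compacts the myelin sheath, was the brightest glial gene at 15.84, 15.85, 15.74, 15.64, 15.75 and 15.84. Its arrays lay within a range of about 0.2 log2 units, and control 4 was the lowest. Syt1, the calcium sensor of synaptic vesicle release, had the brightest probe of any neuronal gene at 15.55, 15.32, 15.23, 15.30, 15.23 and 15.33. Control 1 was above the other 5 arrays, which lay within 0.1 of each other. Cst3, the protease inhibitor cystatin C that astrocytes secrete, had 15.33 ± 0.049. Prnp, the prion protein gene, had 15.62 ± 0.062, and Cpe, the carboxypeptidase that trims neuropeptide precursors, had 15.58 ± 0.078. Tuba1b and Actb, which code for an alpha tubulin and for beta actin, had 15.60 ± 0.087 and 15.18 ± 0.062.

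Genes of protein synthesis filled much of the remainder. Rpl23, Rpl41, Rplp1 and Rps2 code for ribosomal proteins and had 15.74, 15.62, 15.41 and 15.32. Eef1a1, the elongation factor that brings aminoacyl-tRNA to the ribosome, had 15.49 ± 0.084. Atp5b and Atp5g3, subunits of the mitochondrial ATP synthase, had 15.73 ± 0.081 and 15.31 ± 0.18. Ppia, the prolyl isomerase cyclophilin A, had 15.52 ± 0.089, and Mt1, a metal-binding metallothionein, had 15.36 ± 0.12. Snurf, which shares its transcript with Snrpn at an imprinted locus, had 15.36 ± 0.15. Ubb-ps, a ubiquitin pseudogene, had 15.79 ± 0.057 and can share its signal with the parent gene Ubb.

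The beta globin genes Hbb-bs and Hbb-bt, which are nearly identical in sequence, varied more than the rest of the brightest 25. Hbb-bs had 15.34, 15.16, 15.55, 15.89, 15.56 and 15.57, an SD of 0.25. Hbb-bt had 15.08, 14.94, 15.68, 15.73, 15.46 and 15.60, an SD of 0.33. Control 4 was the brightest array and control 2 the dimmest for both. The alpha globin gene Hba-a1, at 15.18 ± 0.24, and Alas2, which starts haem synthesis in developing erythrocytes, at 8.52, 7.91, 9.29, 9.35, 8.76 and 8.88, were also dimmest on control 2. Counts of list genes by array, here and below, are given without the share of all genes brightest or dimmest on that array. They cannot separate a trait of the list from a tilt of the array. Of the 9 erythroid genes detected on at least 3 arrays, 6 were brightest on control 4 and 6 dimmest on control 2. Their summed background-corrected signal ran from 100658 on control 2 to 163003 on control 4; what the blood left in the tissue adds to other genes was not tested.

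A brightest probe does not speak for all probes of its gene. Nme7, of the nucleoside diphosphate kinase family, stood at 15.59 ± 0.14 by its brightest probe, but 6 of its 9 probes were detected on all arrays and the dimmest had 4.56. The dimmest probes of Rpl23, Eef1a1 and Snurf had 4.86, 4.91 and 5.25. Mbp had 13.06 on its next probe and 8.89 on its dimmest of 5, and Syt1 had 13.72 and 9.27. When the mean of a gene's detected probes stood for it, 17 of the brightest 25 remained. Under every other alternative for background, scaling, arrays left out and the authors' processed values, 24 or 25 of the 25 genes remained. Finally, 16 of the 50 brightest probes have no gene in the annotation used here.

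Promoters of 5 genes are printed as examples. The first 4 were picked because they hold TATAAA, which few promoters of their lists do, and the fifth because it holds GGGCGG. Promoters are the RefSeq windows of build GRCm38.p6, 250 bases before to 50 bases after each start, and 8403 of the 10369 genes detected on all 6 arrays had one. Each line gives the 120 bases before the start, 5′ to 3′ on the gene's own strand, with the motif in capitals: TATAAA, the core of the TATA box, in the first 4, and GGGCGG, the core of an Sp1 site, in the fifth. Ckb (chr12:111672339-111672458, minus strand) and Ppia (chr11:6415747-6415866, plus strand) are among the brightest genes, as is Hbb-bt (chr7:103813924-103814043, minus strand). Cldn2 (chrX:139800688-139800807, plus strand), a tight junction gene of choroid plexus epithelium, is among the most variable, and Triap1 (chr5:115341111-115341230, plus strand), a small regulator of apoptosis, among the least variable.
Ckb: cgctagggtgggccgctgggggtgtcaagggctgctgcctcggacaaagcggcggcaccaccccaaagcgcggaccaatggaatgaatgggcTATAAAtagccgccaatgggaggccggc
Ppia: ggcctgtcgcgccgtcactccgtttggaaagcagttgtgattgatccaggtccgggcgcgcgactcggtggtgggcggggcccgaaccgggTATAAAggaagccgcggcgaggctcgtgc
Hbb-bt: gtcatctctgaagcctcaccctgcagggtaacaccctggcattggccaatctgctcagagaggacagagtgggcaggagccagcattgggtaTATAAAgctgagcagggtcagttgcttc
Cldn2: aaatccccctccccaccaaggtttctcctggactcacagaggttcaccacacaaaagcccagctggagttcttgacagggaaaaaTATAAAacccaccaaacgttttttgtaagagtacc
Triap1: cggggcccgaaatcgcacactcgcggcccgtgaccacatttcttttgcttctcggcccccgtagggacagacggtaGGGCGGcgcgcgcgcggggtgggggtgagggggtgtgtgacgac

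Counted over whole lists, TATAAA on the coding strand between 40 and 15 bases before the start was present in 1.19% of the 10908 promoters of genes detected on all 6 arrays. It was present in 4.83% of the 5636 promoters of undetected genes, and in 1.99% of all 32851 promoters. GGGCGG, searched on both strands of the 250 bases before the start, was present in 56.9% of promoters of detected genes, in 25% of those of undetected genes and in 32.7% of all. The median ratio of observed to expected CpG, the dinucleotide that methylation depletes, was 0.74 for detected genes, 0.26 for undetected genes and 0.38 for all. CCAAT, searched on both strands, differed little, at 35.1% for detected genes, 34.7% for undetected genes and 33.8% for all.

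Short lists can be read only as counts. Of 20 promoters of the brightest genes 3 held TATAAA (15%) and 12 held GGGCGG (60.0%). Of 29 promoters of the 25 most variable genes 1 held TATAAA, that of Cldn2. CCAAT was in 4 of them (13.8%), beside 33.8% of all promoters. GGGCGG was in 13 (44.8%), beside 32.7%, and TAATCC in 3 (10.3%), beside 6.25%. Of 24 promoters of the least variable genes 0 held TATAAA or TAATCC, 13 (54.2%) held GGGCGG and 8 (33.3%) CCAAT. A match is a run of letters and not a known binding site.

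The middle 20% of detected genes ran from 8.50 to 9.73, and the mean scanner signal of these genes over the arrays was 666.4. The 15 listed genes nearest the median of 9.12 included Tbr1, a transcription factor of early cortical neurons, at 9.12, 9.13, 9.20, 9.38, 8.93 and 9.25. Htr1a, the inhibitory serotonin receptor of CA1 pyramidal cells, had 9.36, 9.34, 9.12, 9.33, 9.07 and 9.10. Glrb, the beta subunit of the glycine receptor, had 9.23, 9.23, 9.08, 9.24, 9.12 and 9.23. These genes varied little between arrays, with SDs of 0.15, 0.14 and 0.069.

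Sox4, a factor of immature neurons, had 9.13 ± 0.15, and Tac1, the precursor of substance P, had 9.23 ± 0.2. Cacna1g and Cacnb2, calcium channel subunits, had 9.01 ± 0.16 and 9.02 ± 0.27. Olfml3, a secreted protein of microglia, had 9.17 ± 0.11, and H2-D1, a class I histocompatibility antigen, had 9.22 ± 0.091. Hk1, Gusb and Ndufb2, which code for hexokinase, a lysosomal glucuronidase and a subunit of respiratory complex I, had 9.04 ± 0.1, 9.03 ± 0.22 and 9.10 ± 0.24. Amotl1, an angiomotin family protein of cell junctions, had 9.12 ± 0.22. The choroid plexus and leptomeningeal genes Igfbp2 and Rarres2 had middling means but wide spreads, 9.20 ± 1.05 and 9.02 ± 0.59. Igfbp2 had 7.76, 9.69, 10.08, 7.95, 9.85 and 9.86, with controls 1 and 4 the 2 lowest.

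Of 311 genes on the neuronal lists that had a probe, 208 (66.9%) were detected on all 6 arrays and 67 (21.5%) on none. Of 93 genes on the glial lists 77 (82.8%) were detected on all 6 and 9 (9.68%) on none. Over all genes 54.42% were detected on all 6 and 33.29% on none. The lists differed widely among themselves, which the plot of list members shows.

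**Figure D2:**
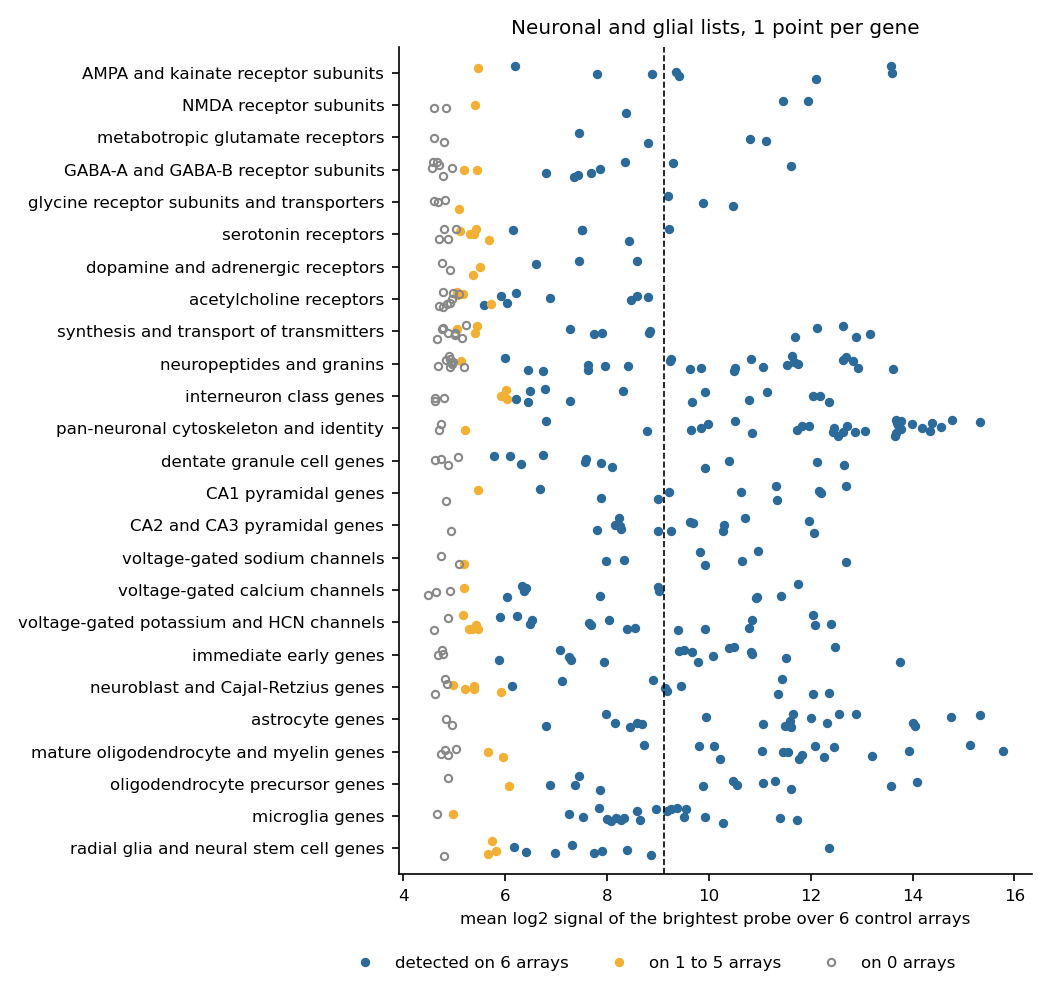
Mean log2 signal of the brightest probe over the 6 control arrays for each member of the neuronal and glial lists, 1 point per gene and 1 line per list, with the dashed line at 9.12, the median of all genes detected on all 6. Pan-neuronal, astrocyte and myelin genes lie mostly to the right of it, and acetylcholine, serotonin and GABA receptor genes mostly to the left, with the undetected genes as open circles at the far left.

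General neuronal genes were the brightest of the neuronal lists. Of 34 pan-neuronal genes 31 were detected on all 6, with a median of 12.86 and a median SD of 0.12. After Syt1, the synaptic vesicle protein Syp had 14.78 ± 0.082, the calcium-dependent kinase subunit Camk2b had 14.55 ± 0.17, and the surface glycoprotein Thy1 had 14.39 ± 0.11. The dimmest detected members were Tubb2a at 6.80 ± 0.15, Rbfox2 at 8.78 ± 0.16, Elavl4 at 9.64 ± 0.17 and Stmn1 at 9.85 ± 0.19.

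Snap25 and Nefl, a membrane fusion protein of every synapse and the light neurofilament, were not detected on any array. The 2 Snap25 probes had a lowest detection p-value of 0.178 and a mean signal of 4.74. The single Nefl probe had 0.274 and 4.70. Both genes are known as abundant in brain, and whether their probes bind their targets was not tested. Each undetected gene below carries the same limit.

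Genes that mark the hippocampal fields were mostly present. Of 15 CA2 and CA3 genes 14 were detected on all 6 arrays (median 9.44), led by Bok, a Bcl-2 relative, at 12.06 ± 0.15 and the RNA-binding protein gene Elavl2 at 11.96 ± 0.14. Pcp4, a calmodulin-binding protein that marks CA2, was undetected, though only just, with a lowest p-value of 0.0556. Of 12 CA1 genes 10 were detected (median 10.97). Fibcd1 had 12.70 ± 0.13, Mpped1 12.21 ± 0.072, and Wfs1, the wolframin gene that marks dorsal CA1, 11.34 ± 0.097. Gpr161 was undetected.

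Of 16 dentate granule cell genes 12 were detected (median 7.89). Ppp1r1a, a phosphatase inhibitor, had 12.65 ± 0.17. C1ql2, a synaptic organiser of mossy fibres, had 12.04, 12.48, 11.96, 12.07, 12.16 and 12.02. Prox1, the factor that fixes granule cell identity, had 9.92 ± 0.16. Tdo2, Calb1, Stxbp6 and Npnt were undetected. Calb1 codes for the calcium buffer calbindin and is a standard protein marker of mature granule cells; its only probe had a lowest p-value of 0.499.

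Among glutamate receptors, the AMPA and kainate subunits were best represented, with 8 of 9 detected on all 6 arrays. Gria1 and Gria2, the subunits that form most hippocampal AMPA receptors, had 13.84, 13.56, 13.47, 13.51, 13.62 and 13.58 and 13.95, 13.29, 13.43, 13.67, 13.42 and 13.64. Gria3 had 12.10 ± 0.13, and Gria4 was far dimmer at 6.20 ± 0.28. Of 6 NMDA subunits 3 were detected on all 6: Grin3a at 11.94 ± 0.081, Grin2b at 11.46 ± 0.18 and Grin2a at 8.37 ± 0.51. Grin2d, a subunit of embryonic brain and interneurons, and Grin3b were undetected, and Grin1 had no probe named here. Of 6 metabotropic receptors 4 were detected, from Grm7 at 11.13 ± 0.17 and Grm5 at 10.81 ± 0.31 to Grm4 at 8.80 ± 0.11 and Grm8 at 7.45 ± 0.078. Grm3, and Grm6, the receptor of retinal bipolar cells, were undetected.

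Of 16 GABA receptor subunits 8 were detected on all 6 arrays, with a median of 7.77. Gabrb1 had 11.61 ± 0.12, the GABA-B subunit Gabbr1 9.29 ± 0.11, and Gabrd, which granule cells use for tonic inhibition, 8.36 ± 0.17. The undetected members were the cerebellar subunit Gabra6, the rho subunits Gabrr1, Gabrr2 and Gabrr3 known from retina, Gabrq, and Gabra5. Gabra5, known as a hippocampal subunit, had 1 probe with a lowest p-value of 0.54. Of 7 glycine receptor and transporter genes, Slc6a9 (10.48 ± 0.11), Glra2 (9.89 ± 0.14) and Glrb were detected, while Glra4 was not, nor were Glra1 and Slc6a5, which spinal cord and brainstem use.

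Receptors of the modulators had medians of 7.51 for serotonin, 7.46 for dopamine and noradrenaline and 6.88 for acetylcholine, below the 9.12 of all detected genes. Of 14 serotonin receptors 5 were detected on all 6 arrays: Htr1a, then Htr5b at 8.44 ± 0.1, Htr3a at 7.51 ± 0.12, Htr1f at 7.51 ± 0.17 and Htr4 at 6.15 ± 0.31. Htr2b, Htr3b, Htr5a and Htr6 were undetected. Of 21 acetylcholine receptor genes 8 were detected, led by the muscarinic Chrm3 at 8.81 ± 0.26 and the nicotinic Chrnb2 and Chrna4 at 8.58 ± 0.18 and 8.48 ± 0.2. Chrm1 and Chrna7, the muscarinic and nicotinic receptors best known from hippocampal neurons, were just above background at 6.25, 6.29, 5.78, 6.25, 5.75 and 5.89 and 5.90, 5.93, 5.75, 6.08, 5.89 and 5.90. The 8 undetected acetylcholine receptor genes were Chrna2, Chrna3, Chrna6, Chrna9, Chrnb3 and the muscle subunits Chrnd, Chrne and Chrng. Of 7 dopamine and adrenergic receptors, Adra2c (8.58 ± 0.11), Drd1 (7.46 ± 0.3) and Drd5 (6.61 ± 0.19) were detected, and Drd3 and Adra1b were not.

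Of 21 genes for making and transporting transmitters 10 were detected on all 6 arrays and 8 on none. Gad1 and Gad2, which make GABA, had 13.16 ± 0.16 and 12.13 ± 0.15. Slc32a1, which loads GABA into vesicles, had 12.89 ± 0.22, and Slc17a7, which loads glutamate in pyramidal and granule cells, had 12.64 ± 0.16. The 8 undetected genes were Th, Dbh, Pnmt, Slc6a3, Tph1, Slc6a4, Chat and Slc18a3, which mark catecholamine, serotonin and acetylcholine neurons. The lowest p-values of these 8 lay between 0.062 for Pnmt and 0.335 for Dbh. Tph2, the neuronal enzyme of serotonin synthesis, was detected on all 6 at 6.91, 7.46, 7.45, 7.05, 7.51 and 7.24, which rests on a probe well below the median gene.

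Neuropeptides covered the whole range, with 24 of 34 genes detected on all 6 arrays and a median of 10.50. Sst, the somatostatin gene of dendrite-targeting interneurons, had 13.65, 13.50, 13.59, 13.76, 13.63 and 13.59. Cck, cholecystokinin, had 12.82, 13.03, 12.96, 12.85, 13.06 and 12.87. The granin-related genes Scg5 and Scg3, which help sort peptides into dense-core vesicles, had 12.84 ± 0.11 and 12.70 ± 0.13. At the low end stood Oxt at 6.00 ± 0.18, Tac2 at 6.45 ± 0.26, Penk at 6.74 ± 0.26 and Nts at 7.63 ± 0.48. The 9 undetected genes were Pomc, Crh, Hcrt, Pmch, Avp, Nppc, Pnoc, Ucn and Ucn3, of which Hcrt, Pmch, Avp and Pomc are made in the hypothalamus. Crh and Pnoc are also known from hippocampal interneurons, and their single probes had lowest p-values of 0.376 and 0.0823.

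Of 19 interneuron genes 13 were detected on all 6 arrays. Calb2, Pvalb and Reln, which code for calretinin, parvalbumin and reelin, had 12.36 ± 0.19, 12.18 ± 0.057 and 12.04 ± 0.13, and Lamp5, of neurogliaform cells, had 11.14 ± 0.2. The dimmest were Lhx6 at 6.21 ± 0.22, Sp8 at 6.45 ± 0.44, Kcnc2 at 6.49 ± 0.25 and Dlx2 at 6.78 ± 0.26. Calb1, Dlx5 and the neuregulin receptor gene Erbb4 were undetected.

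Ion channel genes were detected at 70.0% for sodium, 73.3% for calcium and 69.6% for potassium and HCN channels. The sodium channel subunits Scn2b and Scn2a had 12.70 ± 0.056 and 10.96 ± 0.097. Cacnb4, an auxiliary calcium channel subunit, had 11.75 ± 0.11. Kcnd2 and Kcnc4, which carry fast outward currents, had 12.39 ± 0.15 and 12.09 ± 0.046, Kcna6 had 12.05 ± 0.039 and the pacemaker channel Hcn2 10.85 ± 0.056. The undetected channels were Scn7a, Scn11a, Cacna1f, Cacna1i, Cacna2d4, Kcna7 and Hcn4. Scn11a and Cacna1f are known from sensory ganglia and retina.

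Genes of immature neurons were detected at about the share of all genes. Of 18 neuroblast and Cajal-Retzius genes 10 (55.6%) were detected on all 6, beside 54.42% of all genes. The brightest, Calb2 and Reln, are also on the interneuron list. Sox11 had 11.43 ± 0.07 and Neurod2 11.36 ± 0.29. At the low end stood Neurog2 at 6.14 ± 0.24, Neurod1 at 7.11 ± 0.14 and Igfbpl1 at 8.91 ± 0.22. Neurod6, Eomes, Tubb3, Lhx1 and Ndnf were detected on only some arrays. Trp73 and Lhx5, factors of Cajal-Retzius cells, and Cd24a were undetected.

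Among neuronal and glial genes whose brightest probe was itself detected on all 6 arrays, the 10 dimmest lay between 5.88 and 6.18. They were Nr4a3 (5.88 ± 0.29), Kcna3 (5.90 ± 0.29), Chrna7, Oxt, Chrm1, Cacna1e (6.04 ± 0.3), Pdzd2 (6.10 ± 0.37), Neurog2, Htr4 and Mcm2 (6.18 ± 0.27). Their values lie close above those of the undetected genes, whose means ran from 4.48 to 5.24. All but Chrna7 had SDs above the median of 0.149. Chrna1 and Fam163b, at 5.59 ± 0.3 and 5.78 ± 0.3, were dimmer still; their brightest probes were detected on 5 arrays, and another probe made up the sixth.

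Astrocyte genes were bright and even. Of 22 genes 20 were detected on all 6 arrays, with a median of 11.60 and a median SD of 0.13. Below Cst3, the glutamate transporter gene Slc1a3 had 14.75 ± 0.12, the glycolytic enzyme gene Aldoc 14.04 ± 0.076, and Gja1, connexin 43, 14.00 ± 0.074. S100b, Glul, Agt and Aldh1l1 were the dimmest at 6.80 ± 0.23, 7.99 ± 0.21, 8.16 ± 0.31 and 8.45 ± 0.13. Mlc1 and Chrdl1 were undetected.

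Myelin genes were as bright but less even. Of 22 genes 16 were detected on all 6 arrays, with a median of 11.80 and a median SD of 0.25. Cldn11, the claudin of myelin, had 15.12 ± 0.19. Mag, an adhesion protein of the innermost myelin layer, had 14.37, 13.76, 14.00, 13.54, 13.94 and 13.99. Mobp, a small protein of compact myelin, had 13.56, 13.06, 13.33, 12.73, 13.29 and 13.27. Of the 18 myelin genes detected on at least 3 arrays, 16 were lowest on control 4 and 8 were highest on control 1. Their summed background-corrected signal was 124952 on control 4 and 175020 on control 1, with the other 4 arrays between 144264 and 157520. Myrf, the factor that drives myelin genes, and Ermn, Gjc3 and Gpr37 were undetected; the lowest p-values ran from 0.0652 for Gpr37 to 0.213 for Gjc3.

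Oligodendrocyte precursor genes gave 12 of 14 detected on all 6 arrays, with a median of 10.52. The lineage factor Olig1 had 14.08 ± 0.091, Bcas1, of cells that begin to myelinate, 13.57 ± 0.18, Gpr17 11.62 ± 0.21 and Sox10 11.30 ± 0.18. Cspg4, the NG2 proteoglycan gene of precursors, was the dimmest at 6.88 ± 0.23. C1ql1 was undetected, and Olig2 was detected on only some arrays.

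Microglia genes were detected as often as those of astrocytes, 20 of 22, but at a lower median of 8.80. Laptm5, a lysosomal protein, had 11.73 ± 0.23, Fcrls 11.39 ± 0.083, and the complement genes C1qb and C1qc 10.28 ± 0.095 and 9.93 ± 0.11. Ctss, Sall1, Tyrobp and Gpr34 were the dimmest, at 7.26 ± 0.21, 7.53 ± 0.068, 7.85 ± 0.31 and 8.00 ± 0.24. The fructose transporter gene Slc2a5 was undetected. Of 13 radial glia and stem cell genes 9 were detected on all 6 arrays, with Hopx alone above 9 at 12.36 ± 0.19. Mcm2, Nes, Prom1 and Sox2 were the dimmest at 6.18, 6.40, 6.98 and 7.32, and Thbs4 was undetected.

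Markers of other cells and regions show what else the tissue held. Of 24 endothelial and mural genes 21 were detected on all 6 arrays (median 8.56), among them the glucose transporter gene Slc2a1 at 11.65 ± 0.21 and Cldn5, the claudin of the blood-brain barrier, at 10.89 ± 0.25. Of 16 lymphoid and granulocyte genes 2 were detected on all 6 and 9 on none. Telencephalon factors were present, with Bcl11b at 12.25 ± 0.19 and Zbtb20, the hippocampal identity factor, at 12.00 ± 0.21, although Emx2 was undetected. Of 38 Hox genes, which pattern the hindbrain and spinal cord, 29 were undetected and Hoxa13 (6.75) was detected on all 6. Of 15 midbrain and hindbrain genes 11 were undetected, and of 15 hypothalamic genes 10. Lists of adjoining regions were present at shares near those of the hippocampal lists: thalamus and habenula 12 of 16, striatum and septum 10 of 14, isocortex 11 of 13. Many of those genes are also active in hippocampal cells, so the counts do not measure how much adjoining tissue was taken.

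Genes of the sex chromosomes matched the labelled sex. Both probes of the Y-linked gene Eif2s3y were detected on every control array, with 10.51 ± 0.26 on the brighter. Kdm5d and Uty, also Y-linked, were detected on all 6 by 1 probe each, at 7.98 and 6.42. Xist, which silences the second X chromosome of females, was detected by 0 of its 4 probes. Genes of liver and muscle (5 of 23 detected on all 6) and of germ cells and the eye (2 of 21) were mostly not detected.

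Housekeeping lists, with the pan-neuronal list, had the highest medians. Of 55 cytosolic ribosomal protein genes 49 were detected on all 6 arrays, with a median of 13.42. Of 69 genes of oxidative phosphorylation 65 were detected, with a median of 12.84, and of 21 glycolytic genes 16, with a median of 12.80. Undetected here were Rpl6, Rpl14, Rpl17, Rps20 and Rps23, and Ndufs1 and Sdha, all of them parts of machines that every cell needs. Of the 4 undetected glycolytic genes Pgk2, Ldhc and Gapdhs are testis forms and Pklr is the liver and red cell form.

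The spread between arrays was small for most genes. Over the 10319 genes whose brightest probe was detected on all 6 arrays, the median SD was 0.149, with quartiles of 0.106 and 0.215. It was 0.129 without controls 1 and 4. In 2234 genes (21.6%) the SD was under 0.1, in 122 (1.18%) above 0.5, and in 15 above 1. Dim genes varied more: over 5 equal groups of genes from dim to bright the median SD was 0.246, 0.183, 0.140, 0.122 and 0.107. Without background correction the median SD was 0.114 and 41 genes exceeded 0.5, so these counts depend on the background correction.

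**Figure D3:**
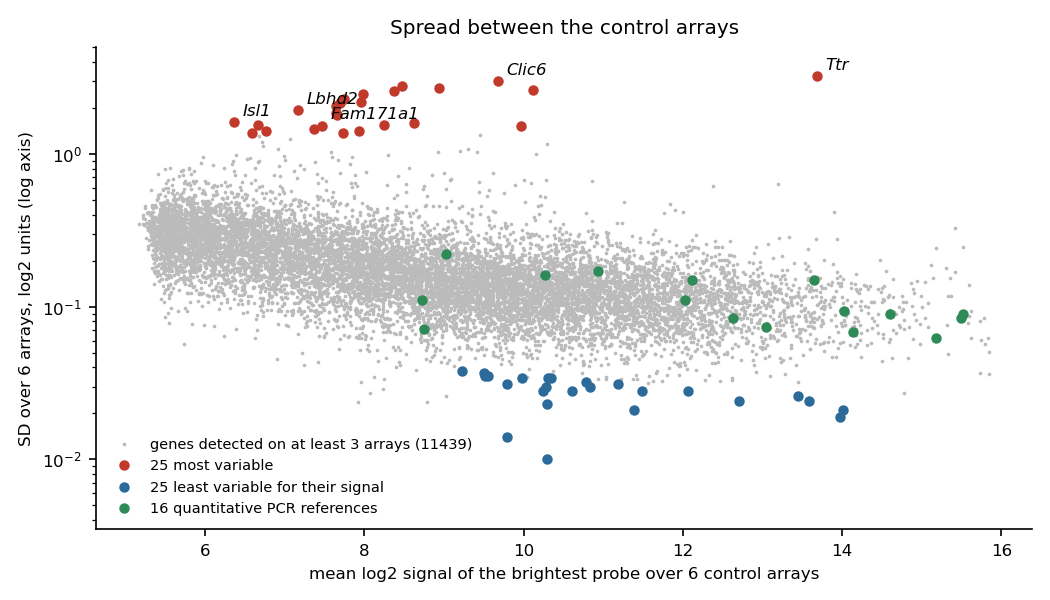
SD over the 6 control arrays, on a log axis, against mean log2 signal for genes whose brightest probe was detected on at least 3 of them; coloured points mark the 25 most variable genes, the 25 least variable for their signal and the quantitative PCR references. The spread narrows from dim to bright genes. The 25 most variable genes, with SDs of 1.36 to 3.22, lie at the top, with no gap to the next gene, Kl, at 1.32.

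The most variable genes were led by genes of the choroid plexus. Ttr led with an SD of 3.22, and its values are given above with the arrays that stand apart. Clic6, a chloride channel protein of secretory epithelia, had 7.07, 11.34, 11.53, 4.80, 11.55 and 11.77. Aqp1, the water channel of the plexus, had 5.77, 10.67, 10.37, 5.21, 10.69 and 10.92. On controls 2, 3, 5 and 6 the 3 genes were evenly bright; on control 4 Clic6 and Aqp1 were at the level of undetected genes, and on control 1 they lay between. Folr1, the folate receptor that moves folate into cerebrospinal fluid, had 4.93, 9.63, 9.23, 4.76, 9.59 and 9.82. Otx2, the factor that keeps choroid plexus identity, had 5.44, 9.35, 9.12, 4.88, 9.37 and 9.59. Kcne2, a potassium channel subunit of the plexus, had 4.84, 9.09, 8.97, 4.71, 9.18 and 9.63. Cldn2, whose promoter is printed above, had 5.08, 9.02, 9.12, 4.76, 9.05 and 9.15. In each of these 4 genes controls 1 and 4 were the 2 lowest arrays.

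To enter the list of the most variable genes, a gene had to be detected on at least 3 arrays. One detected only on controls 1 and 4 could not enter, so the filter favours genes low on these arrays. Of the 25 genes with the highest SD, 22 had controls 1 and 4 as the 2 lowest arrays. Besides those named, they were Defb11 (2.79), Ecrg4 (2.6), Wfdc2 (2.59), Col8a1 (2.06), Calml4 (1.86), Trpm3 (1.8), Sulf1 (1.59), Rbm47 (1.55), F5 (1.54), Sostdc1 (1.52), Inmt (1.45), Col8a2 (1.42), Wfikkn2 (1.4), Lbp (1.36) and Steap1 (1.36), with the SD in brackets. Defb11, a beta-defensin, had 4.98, 10.36, 10.40, 4.79, 10.04 and 10.34, and so was bright on all but controls 1 and 4. Sostdc1, a secreted inhibitor of BMP and Wnt signals, had 7.87, 11.04, 10.93, 8.14, 10.84 and 10.97. Kl, Slc16a8, Cox8b, Scara5 and Slc13a4 lay just outside the 25, from 1.32 for Kl downwards.

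**Figure D4:**
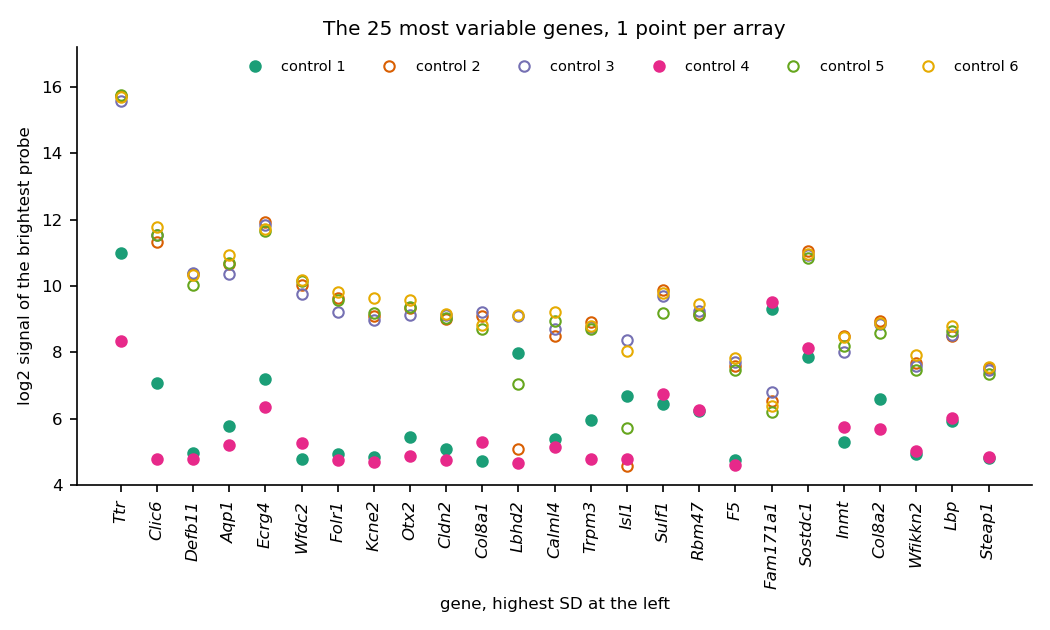
Log2 signal of the brightest probe on each control array for the 25 genes with the highest SD, ordered by SD from the left; filled points are controls 1 and 4 and open points the other 4. Controls 1 and 4 are the 2 lowest for 22 of the 25 genes and the 2 highest for Fam171a1, while Lbhd2 and Isl1 follow another order.

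Of the 18 members of the choroid plexus and ependyma list that were detected on at least 3 arrays, 10 are themselves among the 25. Of the other 8, 5 had controls 1 and 4 as the 2 lowest, and Foxj1 and Enkur, of ciliated cells, and Slc5a5 did not. The summed background-corrected signal of the 8 was 8931 on control 1, 8230 on control 4 and 17401 to 18755 on the other 4 arrays. For all 18 it was 11442, 8910 and 76024 to 83200. Of 12 meningeal and fibroblast genes 8 had controls 1 and 4 as the 2 lowest. Igf2 stands on both lists, and without it 7 of the other 11 meningeal genes still had controls 1 and 4 as the 2 lowest. The sum of the 11 was 4108 on control 1, 6102 on control 4 and 5621 to 6999 on the others. A sum weighs bright genes most. Dcn, the brightest of the 11 and also on the CA1 list, had 11.64 on control 1 and 12.32 on control 4. On the others Dcn had 12.03 to 12.45. The sum on control 4 therefore does not speak for most of the 11. Tmem212, of ciliated ependyma, was undetected throughout. How much plexus each dissection took along is not in the labels, and its part in the result was not tested.

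Fam171a1, Lbhd2 and Isl1 did not follow that order. Fam171a1, a membrane protein gene, was highest on controls 1 and 4, at 9.31, 6.54, 6.82, 9.52, 6.21 and 6.40. Lbhd2 had 7.98, 5.08, 9.10, 4.67, 7.06 and 9.14. Isl1, a factor of septal, striatal and other subcortical neurons, had 6.69, 4.59, 8.37, 4.80, 5.71 and 8.05. For the last pair, controls 3 and 6 were the 2 highest and controls 2 and 4 the 2 lowest.

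Without controls 1 and 4, only 2 of the 25 genes stayed among the 25 most variable, Lbhd2 and Isl1. On the 4 arrays left, 4 genes had an SD above 1 among those detected on at least 2 of them. Over all 6 arrays it was 37, among genes detected on at least 3. Of those 37, controls 1 and 4 were the 2 lowest in 33, a count that the filter on detection favours. The genes named next were chosen after their values were seen. Xlr4a, an X-linked gene, had 10.31, 11.92, 9.49, 9.63, 9.16 and 10.46, with control 2 the highest. Zic1, a factor of septal and thalamic neurons and meninges, had 9.47, 8.66, 10.60, 7.90, 8.68 and 10.47, and its neighbour Zic4 had 6.90, 6.38, 7.85, 6.04, 6.42 and 7.62. Both were highest on controls 3 and 6, as Isl1 was. Zic1 and Zic4 are on the thalamus and habenula list. Of its 10 other detected members 2 were highest on control 3 and 5 on control 6, and their summed background-corrected signal was 13363 and 14287 on these arrays and 11196 to 12801 on the other 4.

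The least variable genes were sought only among genes with a mean above 9.12, the median of the detected genes. Read against genes of like signal, they had steady signals on every array. Msrb2, a mitochondrial methionine sulfoxide reductase, had 10.31, 10.31, 10.31, 10.30, 10.30 and 10.28, an SD of 0.01. Triap1, whose promoter is printed above, had 9.78, 9.78, 9.81, 9.79, 9.79 and 9.77. Nisch, the imidazoline-binding protein nischarin, had 13.96, 13.98, 13.97, 14.00, 13.95 and 13.94. Pfn2, the neuronal profilin that feeds actin filaments, had 14.00, 14.01, 13.99, 14.02, 14.00 and 14.05. The last was the brightest of the 25, whose means ran from 9.23 to 14.01 and whose SDs ran from 0.01 to 0.038, with a median of 0.028.

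Among the others, Pdha1, a subunit of pyruvate dehydrogenase, had an SD of 0.024, Cox6c, of cytochrome oxidase, 0.024, and Atp6v1d, of the vesicular proton pump, 0.026. Crbn, the cereblon substrate receptor, had 0.023, Focad 0.021, and Pde2a, a cyclic nucleotide phosphodiesterase, 0.034. The remaining 15 were Arl16, Thtpa, Gpatch11, Cebpg, Ssx2ip, Sgsm3, Pla2g15, Dcaf1, Arglu1, Ssna1, Gpr137b-ps, Gtf2e1, Map2k5, Scrg1 and Mocs2. These SDs are the lowest among the genes above the median signal, each estimated from 6 arrays. They understate the spread that further arrays would be likely to show. The list also depends on the scaling: with each array scaled to a common median 1 of the 25 genes remained, and with 1 array left out 7 to 12 remained. Without controls 1 and 4, 4 remained.

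The genes that laboratories use as quantitative PCR references were about as variable as other genes of like signal. Of the 17 genes 16 were detected on all 6 arrays, with a median SD of 0.09, while the median was 0.149 for all genes and 0.107 for the brightest of 5 equal groups. Divided by the median SD of the genes nearest in signal, the 16 SDs ran from 0.49 to 1.58 with a median of 0.95, and 9 were under 1. None of the 17 is among the 25 least variable, but genes with a mean of 9.12 or less could not be. Tbp (8.75), Rplp0 (8.72), Gusb (9.03) and the undetected Sdha were under 9.12. Of the 16 divided SDs that of Tbp was the lowest, 0.49. Actb had 15.26, 15.07, 15.15, 15.19, 15.21 and 15.20, the lowest SD of the list at 0.062. Gapdh had 14.12, 14.14, 14.09, 14.06, 14.23 and 14.21, Tbp 8.68, 8.79, 8.82, 8.74, 8.65 and 8.80 and Hprt 13.04 ± 0.073. Each stayed within about 0.2 log2 units over the 6 arrays. Pgk1 (0.084), Eef1a1 (0.084), Ppia (0.089), Ywhaz (0.089), Tuba1a (0.094), B2m (0.11) and Rplp0 (0.11) followed by SD. Cyc1 (0.15), Rpl32 (0.15), Rpl13a (0.16), Tfrc (0.17) and Gusb (0.22) were the least steady. Gusb had 8.66, 9.11, 9.23, 8.95, 8.96 and 9.25, with control 1 the lowest. Sdha was undetected.

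**Figure D5:**
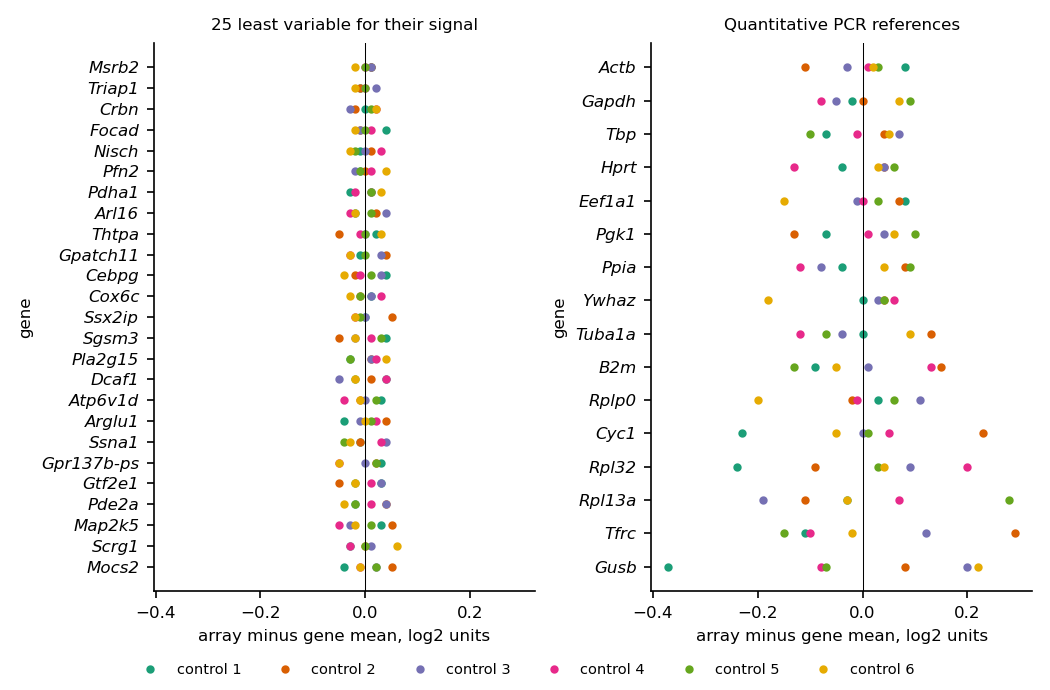
Deviation of each control array from the gene's own mean, in log2 units on a shared scale, for the 25 least variable genes at the left and the 16 detected quantitative PCR references at the right, ordered from the top by spread. The left-hand points keep within about 0.06 of 0, and the references widen from Actb to Gusb.

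Genes that report the state of the animal had wider SDs than the housekeeping lists, at lower signals. Of 20 immediate early genes, which neuronal firing switches on within minutes, 17 were detected on all 6 arrays with a median SD of 0.23. Egr1 had 13.75, 13.63, 13.78, 13.99, 13.72 and 13.63, Egr3 12.55, 12.47, 12.62, 12.67, 12.29 and 12.23, and Homer1 11.51 ± 0.17. Of the 17, 9 were highest on control 4 and 11 lowest on control 6. Nr4a1, Ier2 and Btg2 were undetected. Of 20 glucocorticoid response genes 18 were detected on all 6, with a median SD of 0.25. Sgk1, a kinase that stress hormone induces, had 12.39, 12.47, 12.39, 12.16, 12.81 and 12.74. Of the 18, 11 were highest on control 5 and 5 on control 1. The share of all genes highest or lowest on these arrays is not given here. No time of day or handling is given in the labels.

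Interferon response genes had the widest spread of all lists after the choroid plexus, with a median SD of 0.36 over the 14 of 19 detected on all 6 arrays. Ifi27 had 11.91 ± 0.25 and Ifitm3 10.14 ± 0.37. Ifit3 had 8.37, 9.12, 8.53, 9.84, 8.26 and 8.35. Usp18, the protease that removes the ubiquitin-like modifier Isg15, had 6.67, 7.86, 6.54, 8.43, 6.44 and 6.12. For both, control 4 was the highest and control 2 the next. Of the 14 genes 10 were highest on control 4. Heat shock and chaperone genes were all detected, 19 of 19, with a median SD of 0.19, and 14 of 17 clock genes were detected with a median SD of 0.16.

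The only split of the controls that the labels make is by beadchip, and it gave no difference that passed correction. With limma over 21416 probes detected on at least 3 control arrays, 0 probes (0%) had an adjusted p under 0.05 between controls 4 to 6 on beadchip 2 and controls 1 to 3 on beadchip 1. The lowest adjusted p from limma was 0.579. Before correction 1461 probes had a p under 0.05, 849 of them higher and 612 lower on beadchip 2. With each array scaled to a common median in place of quantile normalization, this split was 581 higher and 708 lower, so no common direction holds over both scalings. For 96.5% of the probes the whole 95% confidence interval fitted inside a 2-fold change either way.

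No single gene passed either. Gnmt, glycine N-methyltransferase, averaged 5.84 on beadchip 2 and 4.80 on beadchip 1, a difference of 1.04 with a 95% interval of 0.755 to 1.33 and a limma adjusted p of 0.579, its beadchip 1 mean being at the level of undetected genes. Ptprn2, a protein of secretory granules, differed by 0.924. Wnt5b averaged 5.37 on beadchip 2 and 6.21 on beadchip 1, a difference of -0.839. With 3 arrays a side, each mean rests on few samples, and the p-values measure the spread between these arrays alone.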

How the data were processed

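Hippocampal RNA of 12 male mice was measured on Illumina bead arrays, and the 6 control arrays are described here. The deposited scanner table holds, for each of 45281 probes, a mean bead intensity without background subtraction or normalization, and beside it, per the file headers, a detection p-value. The authors' processed intensity values were deposited in another table, linear and quantile normalized as equal column distributions show. The submitters' processing notes name GenomeStudio 1.9.0 without its settings.

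With limma 3.58.1 in R 4.3.3, background was removed by normexp fitted through the detection p-values, an offset of 16 was added, and the deposited intensity values of all 12 arrays were quantile normalized and put on the log2 scale. Quantile normalization gives every array the same brightest values. Gene names came from the platform annotation and were brought up to date from the GRCm38.p6 RefSeq table: 34807 probes matched by Entrez number and 11 by accession, 67 kept the annotation's symbol, 18 named several genes and 10378 none. A gene's signal is that of its brightest probe.

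The genes named are the 25 brightest, the 15 listed genes nearest the median, all undetected neuronal and glial list genes, the 10 dimmest whose brightest probe was detected on all 6, the 25 with the highest SD among genes detected on at least 3 arrays, the 25 with the lowest SD relative to the 501 genes nearest in signal, the reference and sex chromosome genes, up to 4 highest and 4 lowest genes of a list, and up to 8 genes a direction between beadchips. The 25 with the lowest relative SD came only from genes with a mean above the median of genes detected on all 6. Members and the 48 lists, which hold 852 genes with a probe, were chosen with earlier results of these data known. Beadchips were compared with limma's moderated test and Benjamini-Hochberg adjustment, checked on simulated data. The number of arrays, 6, limits the precision. Alternatives for background, scaling, probe choice, detection and arrays left out were recomputed with Python 3.11.15 and pandas 2.3.3.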

Additional observations from a re-analysis of the deposited data

Results flagged for a closer look

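Among 225 named genes detected on all 6 control arrays, 11 (4.89%) had 1 array far from the other 5 by Dixon's ratio, the gap to the nearest array divided by the whole range, set against its 95% critical value. Chance marks about 1 in 20 groups of this size, so a share of this size gives no pattern. Control 1 stood apart for 5 of the 11, control 3 for 4, and controls 2 and 6 for 1 each.

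On control 1, the vesicle gene Syt1 was high at 15.55, the others lying at 15.23 to 15.33 (ratio 0.686), and Syp was high at 14.94, the others lying at 14.72 to 14.78 (0.754). Igfbpl1, of immature neurons, was high there at 9.35, against 8.73 to 8.89 (0.747). Neurod1, a factor of granule cell differentiation, was low at 6.82, against 7.16 to 7.19 (0.927), and the calcium channel gene Cacna1g was low at 8.70, against 9.00 to 9.16 (0.65).

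On control 3, the astrocyte transporter gene Slc1a3 was high at 14.98, against 14.66 to 14.75 (0.733), and the microglial protease gene Ctss was high at 7.66, against 7.13 to 7.32 (0.641). Fcrls, also of microglia, was low there at 11.24, against 11.39 to 11.46 (0.679), and the serotonin receptor gene Htr3a was low at 7.28, against 7.50 to 7.64 (0.628). Ssx2ip, one of the least variable genes, was high on control 2 at 11.54, against 11.47 to 11.49 (0.643). Ywhaz, a reference gene, was low on control 6 at 14.42, against 14.60 to 14.66 (0.756).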

How the results depend on the processing

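No paired analysis was possible because only 1 group is described. Counts of detected and undetected genes, neuronal and glial ones included, stayed within 1.5 times of the reported values under each of 9 alternatives. The 25 brightest genes did so under each of 13. No probe passed between beadchips under any setting run. The most variable list kept 2 of 25 genes without controls 1 and 4, 8 when detection on all 6 arrays was asked, and 8 when ordered by SD relative to genes of like signal. The least variable list kept 1 of 25 under median scaling, 8 with the mean of a gene's detected probes, 7 to 12 with 1 array left out, 4 without controls 1 and 4, and 11 with the SD pooled within beadchips. The median SD of 0.149 was 0.114 without background correction and with the authors' values, 0.163 under median scaling, 0.136 with offset 50 and 0.129 without controls 1 and 4. The 122 genes with an SD above 0.5 became 41 without background correction and with the authors' values, 71 with offset 50 and 54 without controls 1 and 4. A larger offset and a background left in draw dim signals together by construction; for the other shifts the cause was not tested. Ttr kept the highest SD under the 5 other normalizations, at 3.08 to 3.24. Signals near background limit the undetected calls.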

Other observations

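Of 17 clock genes, which keep daily time in most cells, 14 were detected on all 6 arrays, with a median SD of 0.16 beside 0.149 for all genes. Dbp, an output gene with a strong daily rhythm in many tissues, had a log2 signal of 12.01, 12.73, 12.60, 12.40, 12.34 and 12.35 on controls 1 to 6, with control 1 the lowest. Per2 had 10.86, 10.73, 10.87, 10.79, 10.90 and 10.93, an SD of 0.073. Bhlhe40 had 11.65 ± 0.071 and Tef 11.26 ± 0.2 (SD, n = 6). Npas2, Per3 and Nr1d1 were the dimmest at 7.03, 7.06 and 7.18, and Cry1 and Bhlhe41 were detected on 0 arrays.

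Chaperone genes were detected without exception among the 19 with a probe. Hspa8, the constitutive chaperone of the cytosol, had 14.93, 14.75, 14.68, 14.93, 14.72 and 14.77. Its inducible relatives Hspa1a and Hspa1b were far dimmer by their probes, at 7.59 ± 0.27 and 6.83 ± 0.19. Hspa5, the chaperone of the endoplasmic reticulum, had 6.51 ± 0.34, while Hsp90b1 and Xbp1, which serve the same compartment, had 12.41 ± 0.11 and 12.39 ± 0.15. Hspd1, the mitochondrial chaperonin, had the lowest SD of the list, 0.048.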
